A study of Equus caballus with 23 samples.

Results

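The genes described here are 135 members of ubiquitin ligase families among 26991 genes of the horse muscle transcriptome. They are the annotated genes whose symbol is RNF, TRIM, FBXO, FBXL, FBXW or KLHL followed by a digit, without TRIM63 and FBXO32. There were 53 RNF, 27 TRIM, 19 FBXO, 7 FBXL, 6 FBXW and 23 KLHL genes, and all 135 passed the filter on low counts that left 11545 genes for testing. One of the 27 TRIM genes carries the read-through symbol TRIM39-RPP21. The authors' tables annotate 9628 of the 26991 genes, 8842 of them with a symbol, so members without an annotation row are not analysed here. All 8842 genes with a symbol passed the filter, so the passing of the 135 followed from how they were found.

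RNA was sequenced from needle biopsies of the gluteus medius, a hindquarter muscle, of Arabian horses in race training. The T0 group held 5 libraries from untrained horses, 3 male and 2 female, of 2.5 years. The T1 group held 8 libraries from 4 male and 4 female horses of 3 years, taken once the intense gallop phase was over and before flat racing began. The T2 group held 10 libraries taken when the racing season ended, from 7 male and 3 female horses of 3 years. Age and training cannot be told apart in comparisons with T0. The labels leave unsaid whether any horse gave more than 1 biopsy and how long before it the horse last exercised. P-values weigh a difference against the spread between these libraries, which the tests treat as independent. Whether the libraries are independent is not known.

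Ubiquitin is attached to proteins by a relay of an activating enzyme, a conjugating enzyme and a ligase, and the ligase selects the target. Most RNF and TRIM proteins carry a RING domain that binds the conjugating enzyme directly. F-box proteins (FBXO, FBXL, FBXW) and most BTB-Kelch proteins (KLHL) are instead the target-binding parts of cullin-RING complexes. F-box proteins join CUL1 through SKP1, and BTB-Kelch proteins join CUL3. In striated muscle these ligases are known for the turnover of sarcomere proteins and for the loss of muscle mass in disuse, and some KLHL proteins, such as KLHL40 and KLHL41, stabilise sarcomere proteins.

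Total counts were 12185608 to 23641809 per library, and the 135 genes together took 0.364% to 0.556% of each library's counts. The slow minus fast fibre score, the mean log2 CPM (counts scaled to library size by TMM) of 12 slow fibre genes minus that of 12 fast fibre gene identifiers, was -5.44 to -3.58 in T0, -2.25 to 4.10 in T1 and -4.98 to -2.50 in T2. T1 did not overlap the other time points, and library m3 of T1 had the score of 4.10 against 0.75 in the next, m11. The span slope of a library was that of log2 CPM, minus each gene's mean over the 23 libraries, on gene span. Its sign and size are thus relative to the other libraries. In log2 units for each 10-fold longer gene, it was 0.0303 to 0.149 in T0, -0.194 to 0.183 in T1 and -0.243 to 0.0421 in T2. The lowest slopes were those of m3 in T1 and of m14, m16, m17 and m22 in T2. None of the listed neutrophil, lymphocyte or erythroid markers was among the annotated genes tested. Summed fibroblast markers (7 of 8 listed) spanned 116 to 437 CPM in T0, 81.2 to 206 CPM in T1 and 98.1 to 324 CPM in T2, and all 7 had negative fold changes in T2 minus T0, with none called. Of 6 smooth muscle and pericyte markers, 3 were lower in T2 minus T0 (median log2 fold change of the list -0.80), with summed levels of 89.9 to 441 CPM in T0, 84.5 to 152 CPM in T1 and 97.4 to 211 CPM in T2. All 7 endothelial markers had negative fold changes in T2 minus T0, none of them called (median -0.32), with summed levels of 212 to 310 CPM in T0, 177 to 260 CPM in T1 and 156 to 242 CPM in T2. In bulk muscle, fewer cells of a type and less RNA per cell cannot be told apart. The part of fibre type and cell type in the differences between time points below was not tested. Correlations with the fibre score within T2 are given at the end. The part of span slope was not tested except where a value without m3, m14, m16, m17 and m22, or with the span trend removed, is given.

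Of the 135 ligase genes, 52 (38.5%) differed in at least 1 of the 3 comparisons of time points at an adjusted p below 0.05 (edgeR's quasi-likelihood test, Benjamini-Hochberg over all tested genes), which is the meaning of "called" below. Among all tested genes 36.1% were called at least once. The 2 comparisons T2 minus T1 and T1 minus T0 share the T1 libraries, so a call in opposite directions in both is not independent evidence of a return. With that limit, the calls fell into a few patterns. RNF139, RNF166, TRIM36, FBXL4, FBXL5 and FBXW11 were lower in T1 than in T0 and higher in T2 than in T1, and FBXW5 had the opposite order. RNF169, RNF213, TRIM8, TRIM26, TRIM33, TRIM68, FBXL20, FBXW8 and KLHL31 were among those lower in T2 than in both earlier time points. RNF34, RNF167 and FBXO33 were higher in T2 than in both. Some of these calls were lost with 1 library left out. In T2 minus T0, those of RNF34 and FBXW8 were lost in 14 and 8 of the 23 leave-one-out fits, that of FBXO33 without m9 or m13, that of RNF169 without m8 or m10, and those of TRIM8 and TRIM26 without m13, where TRIM8 moved to -0.32 from -0.56. The TRIM36 call was lost without m10 in T1 minus T0 and in 12 fits in T2 minus T1, and the FBXL5 call in 8 fits in T2 minus T1.

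**Figure D1:**
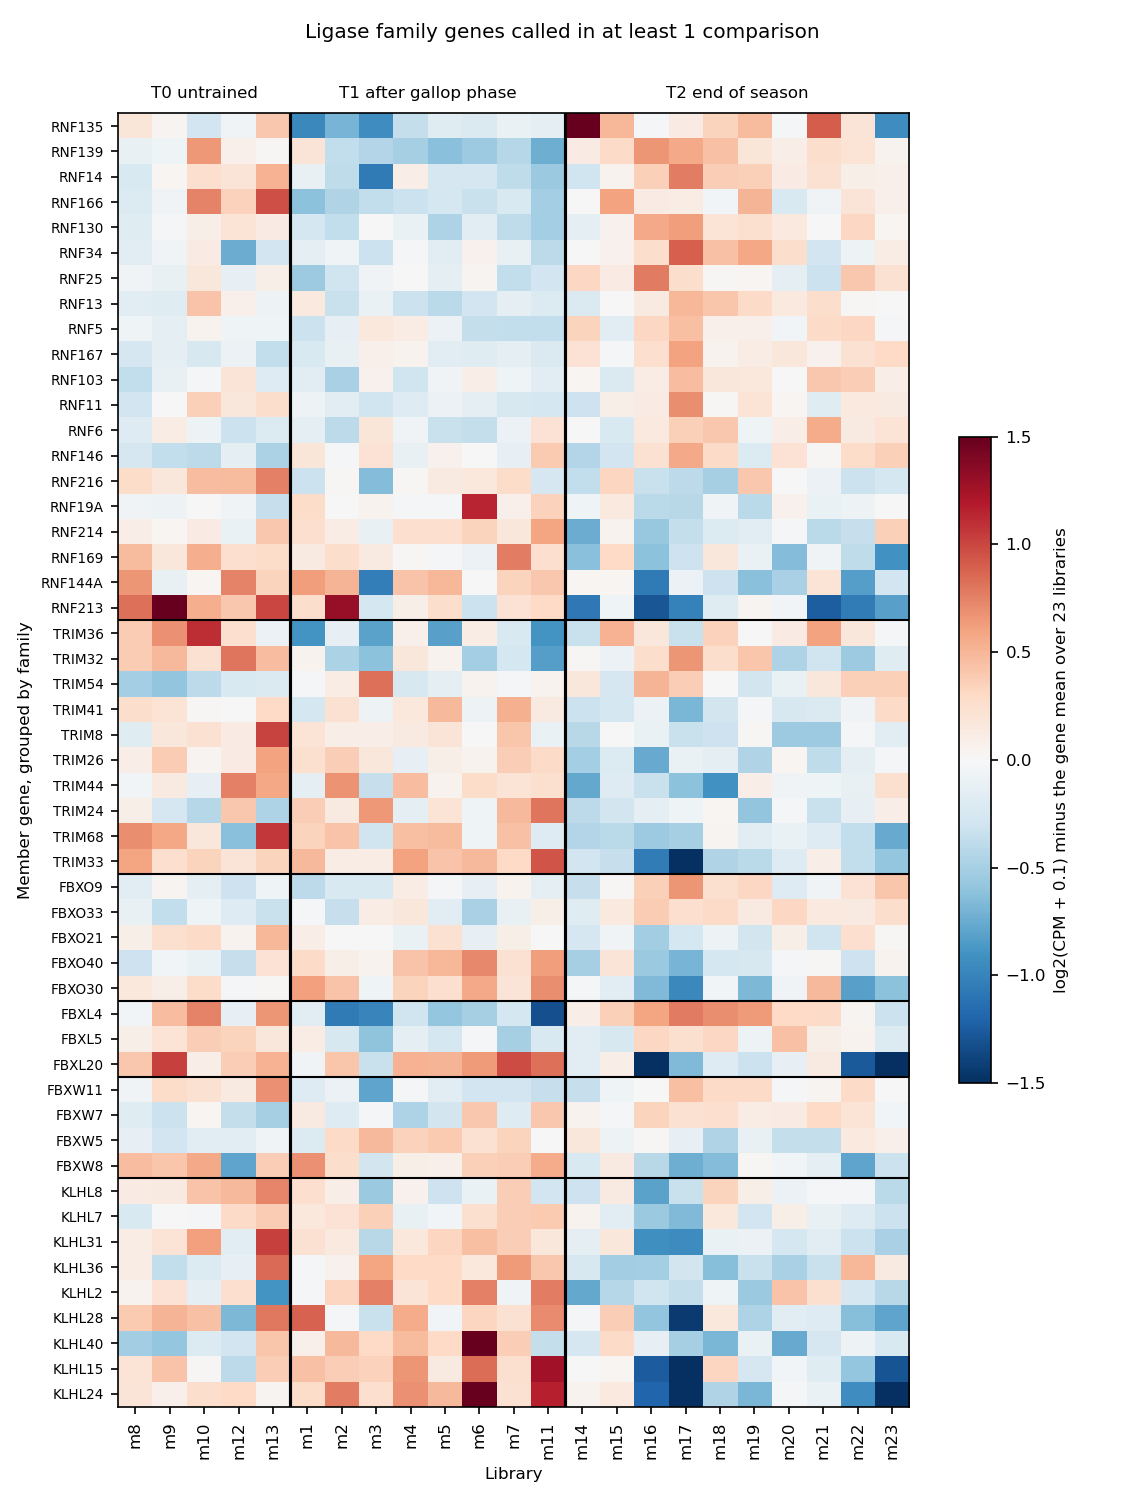
Heat map of 51 of the 52 ligase genes called in at least 1 comparison, one row per gene grouped by family and one column per library, with T0, T1 and T2 from left to right. Colour is log2(CPM + 0.1) minus the gene's mean over 23 libraries, red for above and blue for below. The 8 KLHL genes lower in T2 than in T1 are mostly blue in the 10 T2 columns.

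More members were called between the end of the racing season and the gallop phase than in the other comparisons. Between T2 and T1, 19 of the 135 were higher and 26 were lower, 33.3% in all against 27.6% of all tested genes. The shares were 14.1% higher against a background of 12.6%, and 19.3% lower against a background of 15.1%, so the families as a whole lay near the background. Every member carries a symbol, and among tested genes with a symbol 14.1% were higher and 15.6% lower. Their median log2 fold change was -0.07, beside -0.01 over all tested genes. In the same comparison 11 of 12 slow fibre genes were lower and 11 of 12 fast fibre identifiers higher. Without m3, m14, m16, m17 and m22, the libraries with the lowest span slopes, 9 of the 19 were still higher (RNF13, RNF14, RNF130, RNF135, RNF139, RNF166, RNF167, FBXO33 and FBXL4) and 11 of the 26 still lower (among them RNF144A, TRIM26, TRIM33, FBXO30, FBXO40, FBXL20, FBXW5, KLHL15, KLHL24 and KLHL36), in a fit with 5 fewer libraries. For this and the other alternative fits, here and below, the share of all tested genes called is not given. Whether the lost calls were particular to the ligase genes was therefore not tested. The median span was 32.7 kb for the 26 lower members, 22.7 kb for the 19 higher and 21.1 kb for the 90 not called, beside 41.7, 13.6 and 17 kb over all tested genes with coordinates.

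**Figure D2:**
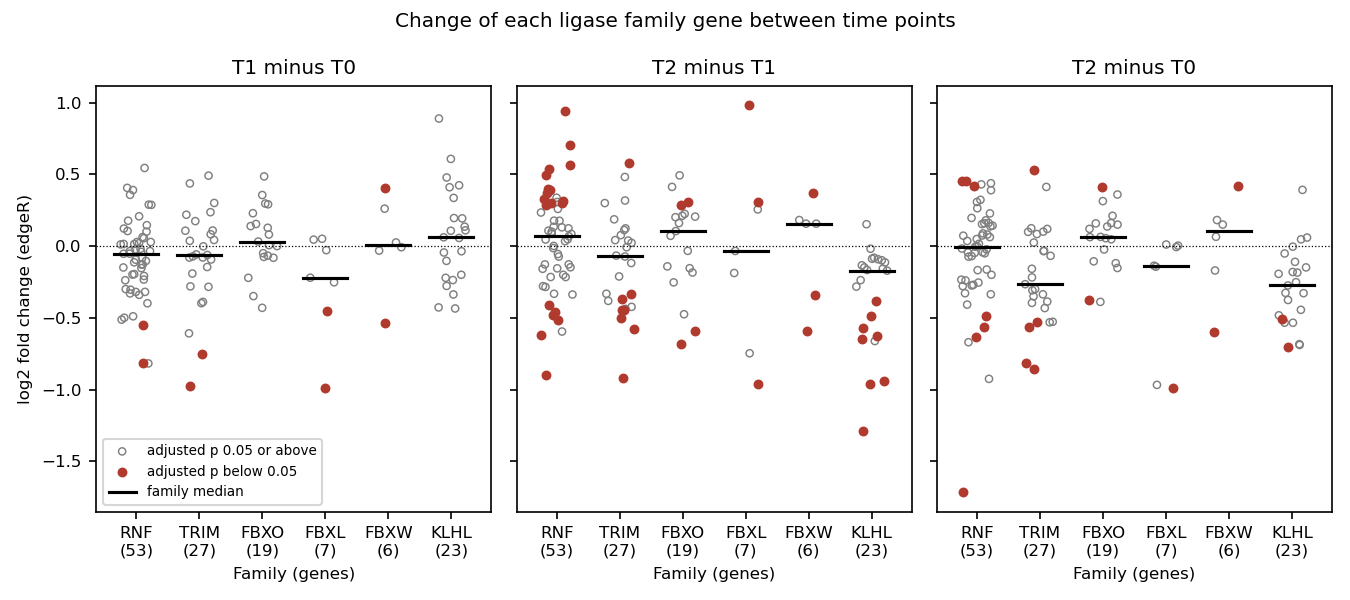
Log2 fold change of each of the 135 ligase genes (points) in the 3 comparisons, by family on the horizontal axis; filled red points have an adjusted p below 0.05 and open grey points do not. In T2 minus T1, 22 of 23 KLHL genes lie below 0, whereas the 53 RNF genes lie on both sides of it.

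Among the adaptors of CUL3, no KLHL gene was higher in T2 than in T1 and 8 of 23 were lower, 34.8% against the background of 15.1%. Their fold changes were negative in 22 of 23 genes, with a median log2 fold change of -0.17, while 51% of all tested genes had a negative one. The 8 were KLHL24, KLHL15, KLHL40, KLHL28, KLHL2, KLHL36, KLHL31 and KLHL7. Leaving out the 5 libraries with low span slopes left 3 of them called, KLHL24, KLHL15 and KLHL36, and removing the span trend from every library by offsets left 8 KLHL genes called.

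KLHL24 (ENSECAG00000021066, chromosome 19, 22046099 to 22082190), a CUL3 adaptor whose human mutations affect skin keratin and the heart, had the largest fall of the KLHL genes. Coordinates here and below are those of the authors' tables, whose genome build no source used here states. Its level was 33.3, 30.8, 34.9, 35.9 and 29.9 CPM in the T0 libraries. It was 34.1 CPM in the lowest, 43.9 in the median and 94.3 in the highest T1 library, and 8.74, 19.7 and 32.3 CPM in T2. Every T2 library lay below every T1 library, a separation seen in 1.45% of all tested genes. The T0 values sat in a narrow band across the top of the T2 range and the bottom of the T1 range. KLHL24 averaged 20.5 ± 8.75 CPM in T2 (SD, n = 10) and 50.2 ± 20.7 CPM in T1 (SD, n = 8), 2.45-fold lower in T2 (log2 fold change -1.29 ± 0.24 SE, adjusted p = 0.000507 by edgeR). It was not called in T2 minus T0 (-0.68 ± 0.27, adjusted p = 0.0851).

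KLHL40 (ENSECAG00000018580, chromosome 16, 43420074 to 43426430), which stabilises the thin filament proteins nebulin and LMOD3, fell in T2 relative to T1. It had 46.8, 45.2, 58.7, 55.2 and 89.9 CPM in the T0 libraries. It had 52.7 CPM in the lowest, 85.2 in the median and 311 in the highest T1 library, and 39.8, 57.1 and 82.4 CPM in T2. The ranges overlapped at all 3 time points, and the 311 CPM of T1 library m6 stood far above the next T1 value of 94.1 CPM. The log2 fold change T2 minus T1 was -0.94 ± 0.25 (adjusted p = 0.00803 by edgeR), and without m6 it was -0.50 (adjusted p = 0.0181). It was -0.99 (adjusted p = 0.0568) without the 5 libraries of low span slope.

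KLHL31, a skeletal muscle and heart protein for which filamin C is a described target in mice, was lower in T2 than at either earlier time. Its level was 96.6, 103, 137, 79.8 and 182 CPM in the T0 libraries. It was 67.2 CPM in the lowest, 103 in the median and 122 in the highest T1 library, and 46.4, 77.2 and 101 CPM in T2. The ranges overlapped, with m16 and m17 the 2 lowest T2 libraries. The log2 fold change was -0.48 ± 0.16 in T2 minus T1 (adjusted p = 0.0237 by edgeR) and -0.71 ± 0.18 in T2 minus T0 (adjusted p = 0.0115). T2 minus T0 was not called without T0 library m13 (-0.50, adjusted p = 0.0694), and neither was called without the 5 libraries of low span slope (-0.40 and -0.54, adjusted p = 0.0705 and 0.0554).

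The other KLHL falls were called in T2 minus T1 only. KLHL15, an adaptor known for the turnover of a PP2A subunit, averaged 1.52 ± 0.645 CPM in T2 and 3.01 ± 0.88 CPM in T1 (log2 fold change -0.96 ± 0.23, adjusted p = 0.00296). KLHL2, an adaptor for WNK kinases, averaged 3.14 ± 0.87 CPM in T2 and 4.87 ± 1.18 CPM in T1 (-0.63 ± 0.18, adjusted p = 0.00997). KLHL36, KLHL28 and KLHL7 had log2 fold changes of -0.57, -0.64 and -0.38 (adjusted p = 0.0148, 0.0266 and 0.0153), and KLHL28 was not called without m1 or without m11. KLHL41, the relative of KLHL40 that binds nebulin, was not called in any comparison. It averaged 1839 ± 782 CPM in T0 (SD, n = 5), where library m12 alone had 3215 CPM, 2443 ± 677 CPM in T1 (n = 8) and 2412 ± 387 CPM in T2 (n = 10). Without m12 it was higher than in T0 by 0.71 in T1 and by 0.69 in T2 on the log2 scale, and both were called. KLHL8 was lower in T2 than in T0 and in no other comparison (-0.51 ± 0.16, adjusted p = 0.0317), a call lost without m10, m13 or m17. KLHL21, KLHL30 and KLHL33 were not called in any comparison (smallest adjusted p = 0.103 for KLHL30 in T2 minus T1).

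**Figure D3:**
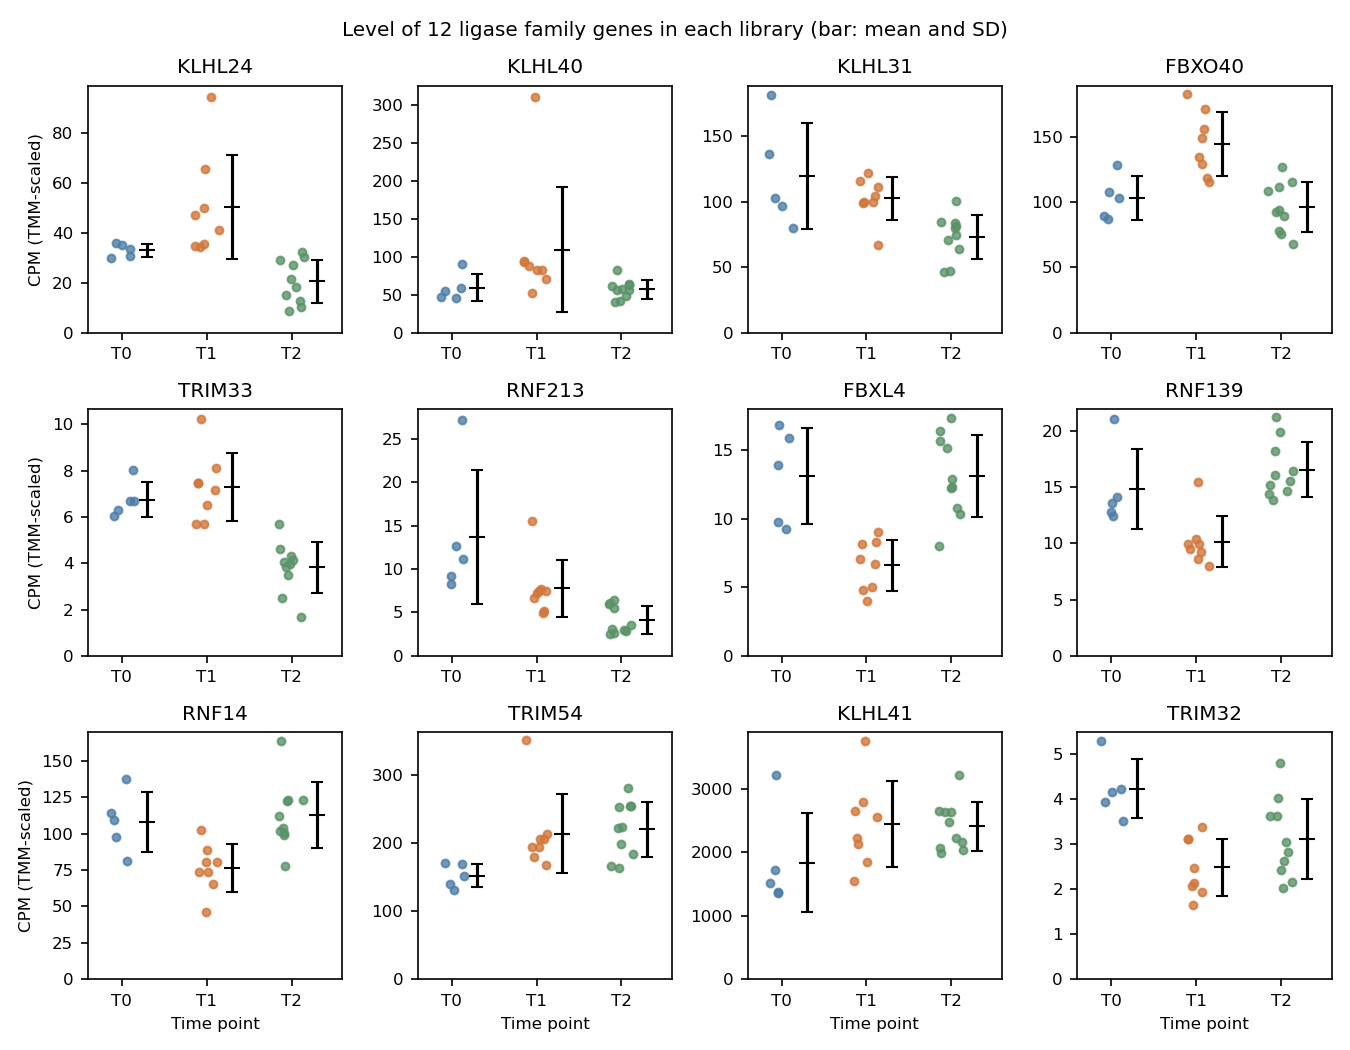
Level in CPM (TMM-scaled) of 12 ligase genes in each library (points) at T0, T1 and T2, with the mean and SD as a bar to the right of the points and a vertical axis from 0. The T2 points of KLHL24 and TRIM33 lie below all T1 points, and those of FBXL4 mostly above them.

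The substrate adaptors of CUL1 and SKP1 were mixed. In T2 minus T1, 2 FBXO genes of 19 were higher and 2 lower, 2 FBXL genes of 7 were higher and 1 lower, and 1 FBXW gene of 6 was higher and 2 lower. The FBXO shares, 10.5% each way, lay below the backgrounds of 12.6% higher and 15.1% lower. The FBXL shares were 28.6% and 14.3% and the FBXW shares 16.7% and 33.3%, each resting on 1 or 2 genes. FBXL4 (ENSECAG00000015268, chromosome 10, 50098114 to 50164868), a mitochondrial protein that limits mitophagy, had its lowest values in T1. It had 9.79, 13.9, 16.8, 9.22 and 15.9 CPM in the T0 libraries. It had 3.98 CPM in the lowest, 6.88 in the median and 9 in the highest T1 library, and 8, 12.6 and 17.3 CPM in T2. Every T1 library was below every T0 library, and the T2 and T1 ranges overlapped between 8 and 9 CPM. FBXL4 rose by 0.98 ± 0.17 on the log2 scale in T2 relative to T1 (adjusted p = 0.000243) and fell by 0.99 ± 0.20 in T1 relative to T0 (adjusted p = 0.00425). No leave-one-out or other alternative run changed the direction or the call of either result.

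FBXO40, an F-box protein of striated muscle that in mice targets the insulin receptor substrate IRS1, was lower in T2 than in T1. It had 89.4, 108, 103, 87.5 and 129 CPM in the T0 libraries. It had 115 CPM in the lowest, 142 in the median and 183 in the highest T1 library, and 68.2, 93.1 and 127 CPM in T2. The T2 and T1 ranges met only at 115 to 127 CPM. The log2 fold change T2 minus T1 was -0.59 ± 0.13 (adjusted p = 0.00122), and T1 minus T0 gave 0.49 ± 0.15 (adjusted p = 0.0545, not called, but called in 5 of the 23 leave-one-out fits). FBXO30, which in mouse muscle is a ligase of atrophy also called MUSA1, averaged 5.34 ± 0.447 CPM in T0, 6.56 ± 1.13 CPM in T1 and 4.05 ± 1.39 CPM in T2. It fell in T2 relative to T1 by 0.69 ± 0.16 on the log2 scale (adjusted p = 0.00271).

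FBXL20, which acts in synaptic vesicle release and on autophagy kinase turnover, averaged 3.42 ± 0.889 CPM in T0, 3.35 ± 0.949 CPM in T1 and 1.69 ± 0.734 CPM in T2. It fell by 0.96 ± 0.24 relative to T1 (adjusted p = 0.00401) and by 0.99 ± 0.27 relative to T0 (adjusted p = 0.016), and the second call was not made without T0 library m9 (adjusted p = 0.0718). FBXW8, the F-box partner of CUL7, fell by 0.59 ± 0.17 in T2 minus T1 (adjusted p = 0.0125). FBXO21 and FBXW8 lie on chromosome 8 at 16212884 to 16248214 and 16219679 to 16433412 in the authors' annotation, and share 28536 bases. These are whole gene spans, and whether exons of the 2 genes overlap was not examined. No label or file header used here states whether counting used strand. Reads of 1 gene may therefore have been counted for the other there, which was not tested. FBXO9, which acts on regulators of the mTOR kinase, and FBXO33 rose by 0.31 ± 0.11 and 0.28 ± 0.10 (adjusted p = 0.0426 and 0.0445), calls lost in 12 and 13 of the 23 leave-one-out fits. FBXW5, which acts with DDB1 and CUL4 complexes, was lower in T2 than in T1 (-0.34 ± 0.10, adjusted p = 0.0136), and FBXW11, a beta-TrCP protein that recognises phosphorylated targets such as beta-catenin, was higher (0.37 ± 0.11, adjusted p = 0.019).

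The RING finger genes included most of the rises of T2 over T1. Of 53 RNF genes, 13 were higher and 6 lower in T2 minus T1, or 24.5% and 11.3% against 12.6% and 15.1% of all tested genes, and the median log2 fold change was 0.07. Among the 13 RNF genes of the membrane and endosome list, which hold transmembrane or vesicle ligases, 7 were higher and 1, RNF19A, was lower, or 53.8% and 7.69% against the same backgrounds, with a median log2 fold change of 0.30. The gene lists were chosen with earlier results of these data known, so these shares describe the list and are not independent evidence. Without the 5 libraries of low span slope, 4 of the 13 were higher. Of 6 tested genes on the linear ubiquitin and RBR list, 1 was higher and 2 lower, or 16.7% and 33.3%. RNF5, RNF6 and RNF11 had log2 rises of 0.33, 0.29 and 0.30, and the RNF6 and RNF11 calls were lost in 14 and 12 of the 23 leave-one-out fits. RNF25, RNF34 and RNF103 rose by 0.39, 0.40 and 0.30 (adjusted p = 0.0181, 0.0269 and 0.0328), and the RNF34 call was lost without m17 and the RNF103 call in 6 of 23 leave-one-out fits.

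RNF139 (ENSECAG00000008926, chromosome 9, 66671253 to 66683899), an endoplasmic reticulum ligase known for its part in sterol-regulated degradation, had 12.4, 12.8, 21, 14.1 and 13.6 CPM in the T0 libraries. It had 8.02 CPM in the lowest, 9.69 in the median and 15.4 in the highest T1 library, and 13.9, 15.8 and 21.2 CPM in T2. The T2 and T1 ranges overlapped because of T1 library m1, with 15.4 CPM. RNF139 rose by 0.71 ± 0.13 in T2 relative to T1 (adjusted p = 0.00029). In T1 minus T0 it fell by 0.55 ± 0.15 (adjusted p = 0.0253), and without T0 library m10, with 21 CPM, it was -0.38 (adjusted p = 0.145).

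RNF14, a cytoplasmic RBR ligase that handles stalled ribosomes, averaged 113 ± 22.7 CPM in T2 (n = 10) and 76.3 ± 16.7 CPM in T1 (n = 8), a log2 rise of 0.56 ± 0.14 (adjusted p = 0.00459). RNF130, a transmembrane ligase of the Goliath type, averaged 49 ± 8.62 CPM in T2 and 34.7 ± 4.49 CPM in T1 (0.50 ± 0.10, adjusted p = 0.00108). RNF13 and RNF167, both endosome and lysosome ligases, rose by 0.37 ± 0.11 and 0.32 ± 0.08 (adjusted p = 0.0109 and 0.0063). RNF166 had 7 CPM in the lowest T2 library and 6.98 CPM in the highest T1 library, so the groups did not overlap, a separation seen upwards in 0.788% of all tested genes. Its log2 rise was 0.54 ± 0.14 (adjusted p = 0.00642). RNF135, which activates the RNA sensor RIG-I, had the largest log2 rise of the RNF genes (0.94 ± 0.25, adjusted p = 0.00779) at 0.875 to 6.08 CPM in T2 and 0.849 to 1.63 CPM in T1.

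Of the RNF genes that were lower in T2, RNF213 (ENSECAG00000016217, chromosome 11, 2619347 to 2704808), a large ATPase and RING protein linked in humans to a vascular disease of the brain, had the largest fall against T1 and against T0. It had 11.1, 27.2, 9.15, 8.27 and 12.6 CPM in the T0 libraries. It had 4.95 CPM in the lowest, 7.37 in the median and 15.6 in the highest T1 library, and 2.5, 3.27 and 6.39 CPM in T2. Every T2 library was below every T0 library, a separation seen downwards in 1.72% of all tested genes. RNF213 was 3.28-fold lower in T2 than in T0 (log2 fold change -1.72 ± 0.29, adjusted p = 0.00125). It was -0.90 ± 0.26 in T2 minus T1 (adjusted p = 0.0128, and 0.119 without the 5 libraries of low span slope) and -0.82 ± 0.30 in T1 minus T0 (adjusted p = 0.098, not called). The T1 minus T0 value was -1.04 without T1 library m2 (adjusted p = 0.0274) and -0.40 without T0 library m9 (adjusted p = 0.484), the library with 27.2 CPM. RNF169 and RNF214 had log2 fold changes of -0.48 and -0.46 in T2 minus T1 (adjusted p = 0.0297 and 0.00872), and the RBR ligases RNF19A and RNF144A of -0.41 and -0.62 (adjusted p = 0.0247 and 0.0267). RNF19A was -0.23 without T1 library m6 (adjusted p = 0.0799), its call was also lost without m11, and the RNF144A and RNF169 calls were each lost in 4 of the 23 leave-one-out fits. RNF169, which binds chromatin at DNA breaks, was the only called gene among 8 of the chromatin and DNA repair list in T2 minus T1. That is 12.5% lower, near the 15.1% of all tested genes. RNF216 was lower in T2 than in T0 alone (-0.56 ± 0.16, adjusted p = 0.0202), a call lost without m10 or m13.

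The tripartite motif genes were mostly lower where they were called. In T2 minus T1, 7 of 27 TRIM genes were lower and 1, TRIM36, was higher, or 25.9% and 3.7% against 15.1% and 12.6% of all tested genes. The lower genes included the nuclear TRIM33, TRIM24 and TRIM41, 3 of the 7 on the nuclear list (42.9% against the same 15.1%). Without the 5 libraries of low span slope, TRIM26 and TRIM33 were still called lower. The calls of TRIM8, TRIM24, TRIM36, TRIM41, TRIM44 and TRIM68 were lost there (adjusted p = 0.0638 to 0.16 by edgeR). TRIM33 (ENSECAG00000021249, chromosome 5, 54236172 to 54347249), a chromatin-associated ligase acting on SMAD4, had 8.03, 6.32, 6.68, 6.04 and 6.69 CPM in the T0 libraries. It had 5.69 CPM in the lowest, 7.31 in the median and 10.2 in the highest T1 library, and 1.68, 4.01 and 5.69 CPM in T2. All T2 libraries lay below the T0 libraries, and the highest T2 value lay below the lowest T1 value only past the third digit. It fell by 0.92 ± 0.16 relative to T1 (adjusted p = 0.000195) and by 0.81 ± 0.18 relative to T0 (adjusted p = 0.00583), and both calls held in every alternative run. TRIM24 fell by 0.50 ± 0.14 in T2 relative to T1 (adjusted p = 0.00848), and TRIM41 by 0.33 ± 0.12 (adjusted p = 0.0341), the second lost in 9 of 23 leave-one-out fits. TRIM26 and TRIM68, of the immune list, fell by 0.45 ± 0.12 and 0.58 ± 0.18 (adjusted p = 0.00638 and 0.0188). TRIM8 and TRIM44 had log2 fold changes of -0.37 and -0.45 (adjusted p = 0.0347 and 0.0463), calls lost in 8 and 15 of the 23 leave-one-out fits.

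Of the 4 tested genes on the muscle TRIM list, 1 was called in T2 minus T0 and 1 in T1 minus T0. That is 25% each, against 16% and 6.91% of all tested genes, and each share rests on 1 gene. None was called in T2 minus T1, against 27.6% of all tested genes. TRIM54, or MURF3, which binds microtubules and the sarcomere, had 139, 132, 151, 169 and 170 CPM in the T0 libraries. It had 167 CPM in the lowest, 200 in the median and 352 in the highest T1 library, and 164, 222 and 281 CPM in T2. The T0 libraries reached only the bottom of both other ranges. TRIM54 rose by 0.53 ± 0.16 in T2 relative to T0 (adjusted p = 0.0268), a call lost without m8 or m9. It was also lost without the 5 libraries of low span slope (0.40, adjusted p = 0.0638). T1 minus T0 gave 0.49 (adjusted p = 0.0715 by edgeR, not called, but called by DESeq2 and limma voom). TRIM55 (MURF2) and TRIM72, which seals membrane injuries, were not called in any comparison. TRIM32, the ligase mutated in a form of limb girdle muscular dystrophy, averaged 4.23 ± 0.659 CPM in T0, 2.48 ± 0.642 CPM in T1 and 3.12 ± 0.89 CPM in T2. Its T1 libraries, 1.64 to 3.37 CPM, lay below the T0 libraries at 3.93, 4.23, 3.52, 5.3 and 4.16 CPM, and the log2 fold change T1 minus T0 was -0.75 ± 0.20 (adjusted p = 0.0233). Without T0 library m12 it was -0.66 (adjusted p = 0.0519).

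Few members differed between the gallop phase and the untrained state. In T1 minus T0, 1 member was higher and 7 lower, 5.93% in all against 6.91% of all tested genes. The shares were 0.741% higher against 3.57% and 5.19% lower against 3.34%, and the median log2 fold change was -0.03, beside -0.02 over all tested genes. Among tested genes with a symbol 3.99% were higher and 3.11% lower. The higher gene was FBXW5 (0.40 ± 0.12, adjusted p = 0.0447), which was not called in 13 of the 23 leave-one-out fits. In this comparison 12 of 12 slow fibre genes were higher and 5 of 12 fast fibre identifiers lower. The lower ligase genes were FBXL4, RNF166, TRIM36, TRIM32, RNF139, FBXW11 and FBXL5. RNF166 spanned 5.32 to 6.98 CPM in T1, below all of its T0 libraries at 7.13, 7.88, 13.8, 10.5 and 16.1 CPM (log2 fold change -0.82 ± 0.17, adjusted p = 0.00427). Without T0 library m10 there were 4 lower genes. Downward non-overlap of this kind was seen in 1.12% of all tested genes. FBXW11 fell by 0.54 ± 0.14 (adjusted p = 0.0176) and FBXL5, the iron sensor that targets the iron regulatory protein IREB2, by 0.45 ± 0.13 (adjusted p = 0.0349). The FBXW11 call was lost without m13 and the FBXL5 call in 9 of 23 leave-one-out fits. TRIM23 and RNF146 did not overlap between T1 and T0 but were not called (-0.39 ± 0.14 and 0.41 ± 0.14, adjusted p = 0.0897 and 0.0801), and upward non-overlap was seen in 1.86% of all tested genes.

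Between T2 and T0, 6 members were higher and 13 lower, 14.1% in all against 16% of all tested genes. The shares were 4.44% higher against 6.73% and 9.63% lower against 9.3%. Among tested genes with a symbol 7.81% were higher and 8.91% lower. The higher genes were RNF34, RNF146, RNF167, TRIM54, FBXO33 and FBXW7. RNF167 had 38.9 to 60.2 CPM in T2 and 33.2, 36.1, 33.4, 37.3 and 30.7 CPM in T0, without overlap (0.944% of all tested genes), and rose by 0.42 ± 0.10 (adjusted p = 0.00717). FBXW7, the adaptor that targets cyclin E and MYC, rose by 0.42 ± 0.13 (adjusted p = 0.031, lost without m9, m13 or m16). RNF146, a ligase for poly-ADP-ribosylated proteins such as axin, rose by 0.45 ± 0.14 (adjusted p = 0.0269, lost without m9, m10 or m13), and FBXO33 by 0.41 ± 0.12 (adjusted p = 0.0255). Without T0 library m9 only 1 member was higher, and without T0 library m13 there were 2 higher and 5 lower; without T0 library m10 there were 7 lower. Of the 19 calls, 3 held in every alternative run, and without the 5 libraries of low span slope 2 members were higher (RNF167 and FBXO33) and 2 lower (RNF213 and TRIM33). The gene span of RNF34 overlaps those of CAMKK2 and ANAPC5 in the annotation, so its counts carry the same untested limit as those of FBXW8 and FBXO21.

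Other genes of the ubiquitin system were set beside the ligase families in T2 minus T1. Of 30 cullin and SCF core genes, 7 were higher and 1 lower, or 23.3% and 3.33% against 12.6% and 15.1% of all tested genes, with a median log2 fold change of 0.19. Called either way were 26.7%, near the background of 27.6%. CUL3, the scaffold of the KLHL adaptors, rose by 0.60 ± 0.11 and CUL1, the scaffold of the F-box adaptors, by 0.47 ± 0.10, while CUL7 fell by 0.57 ± 0.11 (adjusted p = 0.000347 for CUL3). CUL3 therefore differed from the KLHL genes in direction: it was higher in T2, and 22 of 23 KLHL genes had negative fold changes. Of 29 activating and conjugating enzyme and ubiquitin genes, 11 were higher and 1, UBE2O, was lower, or 37.9% and 3.45% against the same 12.6% and 15.1%. UBE2E3 rose by 1.12 ± 0.18, UBE2A by 0.57 ± 0.10 and UBE2D2, a conjugating enzyme for many RING ligases, by 0.49 ± 0.09.

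**Figure D4:**
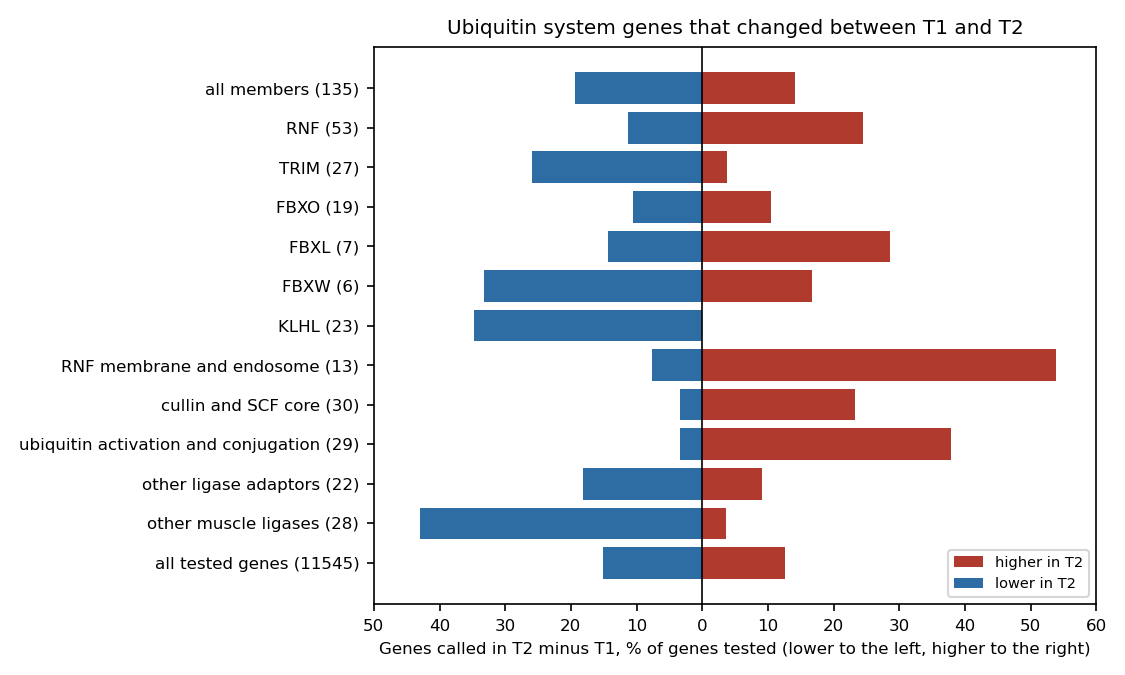
Share of genes called in T2 minus T1, in percent of the genes tested, by row with the number tested. Rows are the ligase families, the RNF membrane and endosome list, other ubiquitin system lists and all tested genes. The other role lists are not drawn. Red bars to the right are higher in T2 and blue bars to the left lower; the KLHL bar runs only to the left at 34.8%, and the activation and conjugation bar mainly to the right at 37.9%.

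Other muscle ligases, a list of 28 tested genes that are not members, had 1 higher and 12 lower in T2 minus T1. That is 3.57% and 42.9% against 12.6% and 15.1% of all tested genes. The list holds TRIM63 and FBXO32, which have family symbols but were left out of the members. MIB2 fell by 0.73 ± 0.12, XIAP by 0.82 ± 0.16 and MARCH6 by 0.54 ± 0.11. The one higher gene was TRIM63, the atrophy ligase MURF1 (0.95 ± 0.34, adjusted p = 0.0422), and FBXO32, the atrogin-1 ligase, gave -0.38 ± 0.29 and was not called. Of 22 other adaptors, 2 were higher and 4 lower (9.09% and 18.2%, near the background), with KBTBD7 at -0.74 ± 0.17 and BTRC, the beta-TrCP relative of FBXW11, at -0.67 ± 0.15. Among 19 known partners and substrates, 3 were higher and 7 lower (15.8% and 36.8%). NEB, the nebulin bound by KLHL40 and KLHL41, fell by 0.63 ± 0.15, TTN by 0.77 ± 0.22 and FLNC by 0.90 ± 0.27. WNK1 fell by 0.82 ± 0.12 and SMAD3 by 0.86 ± 0.18, while SMAD2 rose by 0.58 ± 0.12. LMOD3, the other thin filament protein stabilised by KLHL40, gave 0.22 ± 0.16 and was not called. IRS1 and IREB2, the targets named for FBXO40 and FBXL5, gave -0.14 ± 0.23 and -0.24 ± 0.14 and were not called. In T1 minus T0 these 5 lists held 4 calls in all, between 0% and 7.14% of each list against 6.91% of all tested genes, with MIB2 at 0.60 ± 0.15 and MUL1 at 0.41 ± 0.11 higher, and UBE2E3 at -0.92 ± 0.21 and ASB14 at -0.57 ± 0.16 lower. In T2 minus T0, 1 core gene was higher (NEDD8, 0.55 ± 0.16) and 1 lower (CUL5, -0.35 ± 0.11), 2 conjugation genes were higher and 1 lower, 1 of the other muscle ligases was higher and 7 lower, and 3 other adaptors and 1 partner, WNK1, were lower. The shares called either way in T2 minus T0 were 28.6% of the other muscle ligases and 5.26% to 13.6% of the other 4 lists, against 16% of all tested genes.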

How the data were processed

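RNA of 23 gluteus medius biopsies was sequenced, per the labels' protocols after TruSeq RNA v2 library preparation. The authors deposited RSEM expected counts per gene, which are whole numbers in the file, and the submitters' processing notes name FastQC, STAR, RSEM and DESeq2. Versions, the genome build, the pooling of technical repetitions and the use of strand are stated by no label or header used here. The deposited comparison tables also hold log2 fold changes, p-values and mean normalized values, which were not used, because no label ties their group letters to time points. Symbols and coordinates came from the same tables, and 0 columns were left without a mapped sample.

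Genes were kept by filterByExpr (minimum count 10, minimum total count 15), which left 11545 genes with 99.93% of counts, while 6643 genes had no count in any library. One edgeR 4.0.16 fit in R 4.3.3 covered all 23 TMM-scaled libraries, and robust quasi-likelihood F tests of its contrasts compared the time points. The scripts were tested on simulated data first. P-values were adjusted by Benjamini-Hochberg over all tested genes with a threshold of 0.05. The standard error was the absolute log2 fold change over the square root of F. Log2 CPM used a prior count of 2. Counting error adds to the spread between libraries, and depth limits the genes of low CPM most.

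Members, gene lists and tests were chosen with earlier results of these data known. Named were, in each comparison, up to 8 largest rises and falls among called members with a mean log2 CPM of at least 1 and a panel of genes with described muscle roles. Other called members are named outside this rule, after their values were seen. Some genes that enter the fits and counts are not reported here by name or drawn in the heat map. Of other lists, up to 3 called genes with the smallest p are named. NEB, TTN, FLNC, LMOD3, IRS1, IREB2, TRIM63, FBXO32 and UBE2O were added after their values were seen. Alternatives were DESeq2 1.42.0, limma 3.58.1 voom with sample weights, median ratio size factors, no filter, sex as a covariate, only the 2 time points compared, m3 and m12 left out together, and each library left out in turn. Removing the trend on gene span and leaving out m3, m14, m16, m17 and m22 together were chosen after seeing the data. Correlations used SciPy 1.17.1 permutation tests with 100000 resamples.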

Additional observations from a re-analysis of the deposited data

Results flagged for a closer look

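In 19 of 183 groups of 1 ligase gene at 1 time point, a single library stood far from the rest by Dixon's ratio at the 95% critical value, where chance alone flags about 1 group in 20. The causes were not tested. T1 library m3, which also had the highest slow minus fast fibre score, was lowest for FBXW11 (13.9 CPM), KLHL31 (67.2 CPM) and RNF144A (0.701 CPM) and highest for TRIM54 (352 CPM). T1 library m6 was highest for KLHL40 (311 CPM), RNF19A (43.9 CPM) and TRIM55 (34.0 CPM).

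T0 library m12 was lowest for FBXW8 (1.38 CPM), KLHL28 (1.70 CPM) and KLHL33 (13.6 CPM) and highest for KLHL41 (3215 CPM). In T2, library m17 was highest for RNF11 (151 CPM) and RNF167 (60.2 CPM), and m14 was lowest for FBXO33 (4.05 CPM). RNF139 stood apart in T0 library m10 (21 CPM) and in T1 library m1 (15.4 CPM). The remaining flags were RNF169 in T1 library m7 (highest, 3.998 CPM), RNF19A in T0 library m13 (lowest, 15.6 CPM) and RNF213 in T1 library m2 (highest, 15.6 CPM).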

How the results depend on the processing

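No paired analysis was possible because the labels do not say which libraries, if any, came from the same horse. No called member changed direction under any alternative run. Of the 8, 45 and 19 members called in T1 minus T0, T2 minus T1 and T2 minus T0, 2, 18 and 3 stayed called under all of them. Members higher in T1 minus T0 (1) numbered 0 with no filter and with only 2 time points, 5 with DESeq2, 8 with limma voom and 3 without m3 and m12. Those lower (7) numbered 11 with limma voom. Members higher in T2 minus T1 (19) numbered 12 with no filter. Members higher in T2 minus T0 (6) numbered 10 without m3 and m12, and those lower (13) numbered 20 with limma voom. Without m3, m14, m16, m17 and m22 together, T2 minus T1 gave 9 higher and 11 lower, and T2 minus T0 gave 2 higher and 2 lower. In T2 minus T1 of this fit there were 3 KLHL genes lower, 7 RNF genes higher and 4 of the membrane and endosome list higher. This fit has fewer libraries, and the share of all tested genes called in it is not set beside these counts. The cause was not tested for any setting. With 1 library left out, counts ranged from 0 to 3 higher and 4 to 8 lower in T1 minus T0, 13 to 21 higher and 20 to 30 lower in T2 minus T1, and 1 to 7 higher and 5 to 18 lower in T2 minus T0. In these fits 7 to 9 KLHL genes were lower, and 9 to 14 RNF genes and 5 to 8 of the membrane and endosome list higher, in T2 minus T1. Median ratio size factors and sex as a covariate moved none of these counts by more than 1.5 times.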

Other observations

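Sex gave no call among the ligase genes. In a model with time point, 0 of 135 members differed between female and male libraries by edgeR (lowest adjusted p = 0.752), beside 0% of all tested genes, and 7 had an unadjusted p below 0.05. DESeq2 gave 0 called and 7 at an unadjusted p below 0.05. No member differed between the sexes in how it changed between time points by edgeR (0 called in each of 3 comparisons, with 8 in T1 minus T0, 0 in T2 minus T1 and 6 in T2 minus T0 at an unadjusted p below 0.05).

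Within the 10 T2 libraries, the level of 43 named members was correlated with the slow minus fast fibre score, and 0 passed an adjusted p of 0.05 by permutation. FBXL4 had the lowest Pearson r, -0.81 (permutation p = 0.00464, adjusted p = 0.189), with a Spearman rho of -0.71 (permutation p = 0.0265, adjusted p = 0.385), and r was -0.50 without m17 and m23, the libraries farthest from the median score. TRIM32 had r = -0.77 (permutation p = 0.00878, adjusted p = 0.189) and rho = -0.82 (permutation p = 0.00596, adjusted p = 0.256), and r was -0.79 without the same 2 libraries. Within the 8 T1 libraries, where no p-value was computed, r of the named members ran from -0.91 (FBXW11) to 0.91 (TRIM54). Without m3 these values were -0.56 and 0.45. For RNF146 r went the other way, from 0.67 to 0.93 without m3.

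Over all 23 libraries, the genes outside the families whose log2 CPM was most like the median standardized profile of the 26 members lower in T2 than in T1 were PRRC2C (r = 0.97), ASH1L (0.96) and FOXN3 (0.96). For the 19 higher members they were CFAP36, MEMO1 and RCHY1 (0.92 each), and for the 7 members lower in T1 than in T0 they were PGK1 (0.94), MAPK6 (0.93) and PPIC (0.92). For all 52 called members they were RBL1 (0.89), GLTSCR1L (0.89) and HIPK3 (0.88). These are descriptions over libraries that share their time points.

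FBXO6 was the only member with 2 listed transcripts, with a median of 62 counts for both together. FBXO6-201 took 46.2% ± 16.9 of them in T0, 48.8% ± 12.2 in T1 and 36.5% ± 9.03 in T2 (SD, n = 5, 8 and 10).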
